A study of Mus musculus with 12 samples.

Results

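The 6 genes described here encode the keratins of the interfollicular epidermis, the stratified sheet of keratinocytes between the hair follicles. They are a named set, chosen by gene name and with no threshold on a value: Krt5 and Krt14 of the basal layer, and Krt1, Krt10, Krt2 and Krt77 of the suprabasal layers, 6 of the 47643 gene IDs in the deposited tables. RNA was measured by poly(A) RNA-seq in mice of the C57BL/6 background at 10 weeks of age. Both whole skin and epidermis were taken from wild type mice (WT) and from mice with a conditional Adam17 knockout (KO), which gave 4 groups of 3 libraries. The KO animals carried the Sox9-Cre driver and ADAM17fl/fl. In them the protease gene is deleted in cells that have had Sox9 promoter activity, a lineage that includes the hair follicle, and not by an agent restricted to the interfollicular epidermis. ADAM17 is a membrane protease that sheds growth factors and cytokines from the cell surface. The labels do not say whether the WT mice carried the floxed allele or Cre, how epidermis was separated, or whether libraries of 1 group came from separate or pooled mice, so the p-values measure only the spread between these libraries.

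Keratins form filaments only as pairs of a type I and a type II protein. Basal keratinocytes, which divide and sit on the basement membrane, make the type II keratin Krt5 and its type I partner Krt14. Cells that leave the basal layer to differentiate switch to the type II keratin Krt1 and the type I keratin Krt10. Krt2 is a late suprabasal type II keratin that in mice is found mainly in ear, tail and sole skin, and Krt77 is a further suprabasal type II keratin.

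Libraries held between 12208522 and 16743144 expected counts. Adam17 was lower in both KO tissues, with log2 fold changes of -0.75 in skin (adjusted p = 0.00797) and -0.66 in epidermis (adjusted p = 0.00213, the quasi-likelihood test of edgeR, Benjamini-Hochberg adjusted). Its counts cover deleted and retained exons alike, and the skin call ended with a covariate for Y-linked reads (adjusted p = 0.0805). Reads of 4 Y-linked genes were 0 in all 6 WT libraries and ran from 213 to 1781 in 5 of the 6 KO libraries, with 0 in Skin KO 2, so sex and genotype are partly confounded. Of these 5, Skin KO 3 and Epidermis KO 2 and 3 also held 319, 2511 and 2050 reads of Xist, the transcript of the inactive X chromosome, while Skin KO 1 and Epidermis KO 1 held 0. Skeletal muscle markers summed to 9700.1 to 71112 CPM (expected counts scaled to a common library size) in WT skin and 716 to 3410.0 in KO skin. Fibroblast markers summed to 5.96 to 10.5 CPM in WT epidermis and 63.3 to 126 in KO epidermis. Epidermis KO 2 stood apart by keratins of mucosal epithelium, with 372 CPM of Krt4 and 337 CPM of Krt13. In Epidermis KO 3 these were 43.2 and 37.1 CPM, and in the other 10 libraries neither exceeded 4.07 CPM.

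Krt1 and Krt77, both suprabasal type II keratins, changed in opposite directions. In KO mice Krt1 rose 7.31-fold in skin and 6.52-fold in epidermis, and Krt77 fell 15.5-fold in skin and 4.08-fold in epidermis, while Krt10, the type I suprabasal keratin, did not pass the test in either tissue. The basal pair behaved differently in the 2 tissues. Krt14 rose 2.82-fold in KO skin, and Krt5 fell 2.18-fold in KO epidermis. Krt2, a minor transcript with at most 43 counts in a WT skin library, fell 6.87-fold in KO skin.

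In whole skin 2 of the 6 keratins rose and 2 fell in the KO, where 22.2% of all 14906 genes tested rose and 23.3% fell. In epidermis 1 of 6 rose and 2 fell, where 26.2% of 13632 genes rose and 25.3% fell. Both directions together, 45.5% of genes were called in skin and 51.5% in epidermis. The 4 calls in skin also passed with Skin KO 2, which lacks Y-linked reads but has the highest simple epithelial keratins of the skin libraries, as the only KO library, assumed to vary as the WT libraries do, though that of Krt2 ended with Y-linked reads as a covariate. The 3 calls in epidermis also passed without Epidermis KO 2. All 6 passed the filter on low counts in every comparison. In skin Krt2 did so through the WT libraries (41, 43 and 32 counts), as KO skin held 2, 2 and 10. Between KO tissues Krt2 did so through epidermis. The median log2 fold change of the 6 was 0.32 in skin and 0.06 in epidermis, beside medians of -0.0014 and 0.00301 over all genes tested. With so large a share of genes called, a call by itself does not set the keratins apart from the rest.

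**Figure D1:**
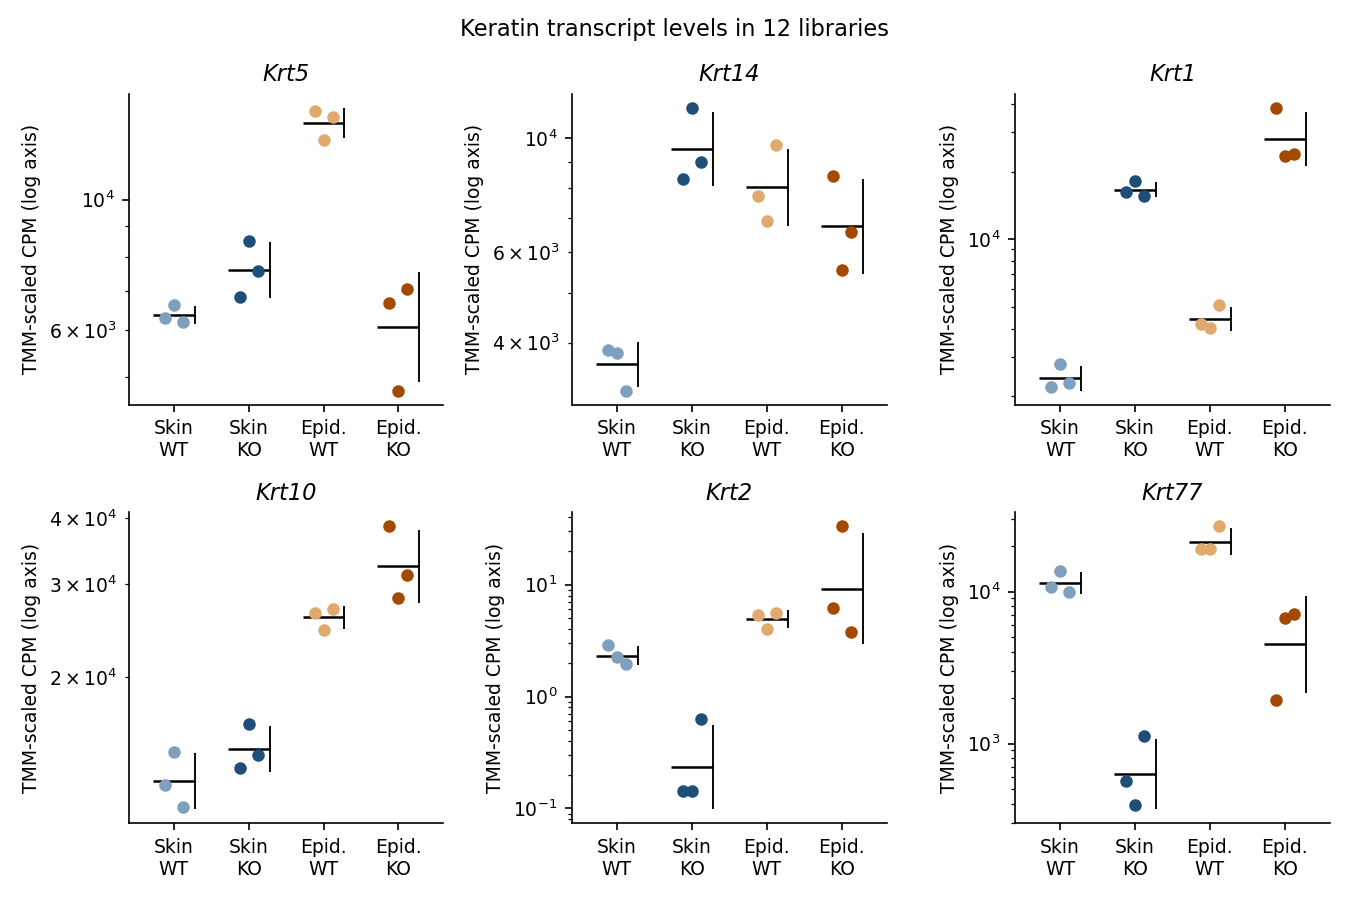
TMM-scaled CPM of each keratin (log axis, different ranges) in the 12 libraries by group. Points are libraries, lines are geometric means and bars are 1 SD of the log2 values. Krt1 is higher and Krt77 lower in all 3 KO libraries of either tissue than in any WT library of that tissue, while Krt5 is high in WT epidermis alone.

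Krt5 (ENSMUSG00000061527.6; GRCm38, the assembly also called mm10, chr15:101707070-101712898, minus strand) is the type II keratin of the basal layer. Its CPM, scaled between libraries by edgeR's trimmed mean method (TMM), were 6289.5, 6610.5 and 6181 in WT skin and 6828, 8507 and 7547 in KO skin. The groups did not overlap, as for 58% of all genes tested in skin, but the log2 difference of 0.35 (SE 0.20, adjusted p = 0.18) did not pass edgeR's test, whereas DESeq2 called it (adjusted p = 0.0423). In WT epidermis the CPM of Krt5 were 14144, 12638 and 13790.3, against 6682, 4735 and 7054 in KO epidermis. All 3 KO libraries lay below the lowest WT library, and the log2 change was -1.12 (SE 0.20, adjusted p = 0.00209) in the same test. The genotype effect on Krt5 thus differed between epidermis and skin, with an interaction of -1.40 (SE 0.25, adjusted p = 0.00506) on the log2 scale.

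Krt14 (ENSMUSG00000045545.8; chr11:100203162-100207548, minus strand), the type I partner of Krt5, measured 3876, 3811 and 3225 CPM in WT skin and 8354, 11484 and 9017 in KO skin. The lowest KO library was above the highest WT library, and the log2 change was 1.49 (SE 0.22, adjusted p = 0.00232) by edgeR's test. In epidermis Krt14 measured 7723, 6900.4 and 9699.9 CPM in WT and 8433, 5532 and 6558 in KO libraries. These ranges overlapped, and the log2 difference of -0.23 (SE 0.22, adjusted p = 0.394) did not pass. The interaction for Krt14 was -1.65 (SE 0.29, adjusted p = 0.00508), close in size to that of Krt5. So Krt14 stood higher in KO skin with no call for Krt5, and Krt5 stood lower in KO epidermis with no call for Krt14. In the interaction test 16.5% of 15394 genes were called, 10.1% in the positive and 6.36% in the negative direction. Krt5, Krt14 and Krt2 were called, and Krt1, Krt10 and Krt77 were not.

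Within libraries the basal pair had a lower ratio of Krt5 to Krt14 in the KO of both tissues. The ratio of Krt5 to Krt14 in deposited TPM, a unit that corrects for transcript length and so allows genes to be compared, was 1.22, 1.3 and 1.43 in WT skin and 0.614, 0.554 and 0.63 in KO skin. In epidermis it was 1.37, 1.37 and 1.02 in WT and 0.591, 0.645 and 0.8 in KO. Krt5 exceeded Krt14 in all 6 WT libraries and was below it in all 6 KO libraries. These ratios carry no test.

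Reads of the basal pair can be shared with paralogs. Of all 50-base words in the annotated transcripts of Krt5, 8.52% also occurred in another gene, chiefly Krt6a, and of those of Krt14 13.9% did, chiefly in Krt16 with 11.0%. For Krt1, Krt10, Krt2 and Krt77 no such word was shared. Krt16 itself measured 60.3, 16.5 and 46 CPM in WT skin and 3407, 5170.0 and 3909.7 in KO skin. The estimation splits shared reads by probability, and what that adds to the values of Krt5 and Krt14 was not tested.

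Krt1 (ENSMUSG00000046834.6; chr15:101845426-101850794, minus strand) is the type II keratin that starts with differentiation. In WT skin it measured 2197, 2789 and 2291 CPM and in KO skin 16228, 18127 and 15548 CPM. Every KO library was above every WT library, with a log2 change of 2.87 (SE 0.23, adjusted p = 0.000258) by edgeR's test. In epidermis Krt1 measured 4211, 4012 and 5099 CPM in WT and 38467, 23523 and 24012 CPM in KO libraries. Epidermis KO 1 was the highest of all 12 libraries. The log2 change in epidermis was 2.70 (SE 0.26, adjusted p = 9.63e-05), and its difference from that in skin was -0.09 (SE 0.31, adjusted p = 0.87), which did not pass. Of the 6 keratins Krt1 alone rose in both tissues.

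Krt10 (ENSMUSG00000019761.9; chr11:99385254-99389364, minus strand), the type I suprabasal keratin, was the most abundant of the 6 by TPM in 11 of 12 libraries. Krt1 exceeded it only in Skin KO 1. Krt10 measured 12512, 14434 and 11342 CPM in WT skin and 13458, 16343 and 14264 in KO skin, with overlapping ranges and a log2 difference of 0.29 (SE 0.23, adjusted p = 0.328). In epidermis it measured 26533, 24538 and 26936 CPM in WT and 38686, 28328 and 31245 in KO libraries. These groups did not overlap, as for 62% of genes tested in epidermis, but the difference of 0.35 (SE 0.21, adjusted p = 0.19) did not pass edgeR's test. DESeq2 called this difference of Krt10 in epidermis (0.36, adjusted p = 0.0336).

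Krt77 (ENSMUSG00000067594.5; chr15:101858731-101869705, minus strand) moved against Krt1. It measured 10744, 13686 and 9892 CPM in WT skin and 564, 395 and 1116 in KO skin. The highest KO library stayed far below the lowest WT library, and the log2 change was -3.96 (SE 0.44, adjusted p = 0.000776) by edgeR's test and -4.74 with Skin KO 2 as the only KO library. In epidermis Krt77 measured 18939, 18939 and 26933 CPM in WT and 1919, 6653 and 7082 CPM in KO libraries. The groups did not overlap, and Epidermis KO 1 was lower than Epidermis KO 2 and 3. The log2 change of Krt77 in epidermis was -2.03 (SE 0.45, adjusted p = 0.00551), a call that ended with the covariate for Y-linked reads (-1.02, adjusted p = 0.0762). The fall was larger in skin by 2.0 (SE 0.66, adjusted p = 0.0578) on the log2 scale, a difference that missed the threshold. DESeq2 called it (1.98, adjusted p = 0.00849), as did edgeR without Skin KO 3 (2.53, adjusted p = 0.0305) or Epidermis KO 1 (2.39, adjusted p = 0.0137).

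**Figure D2:**
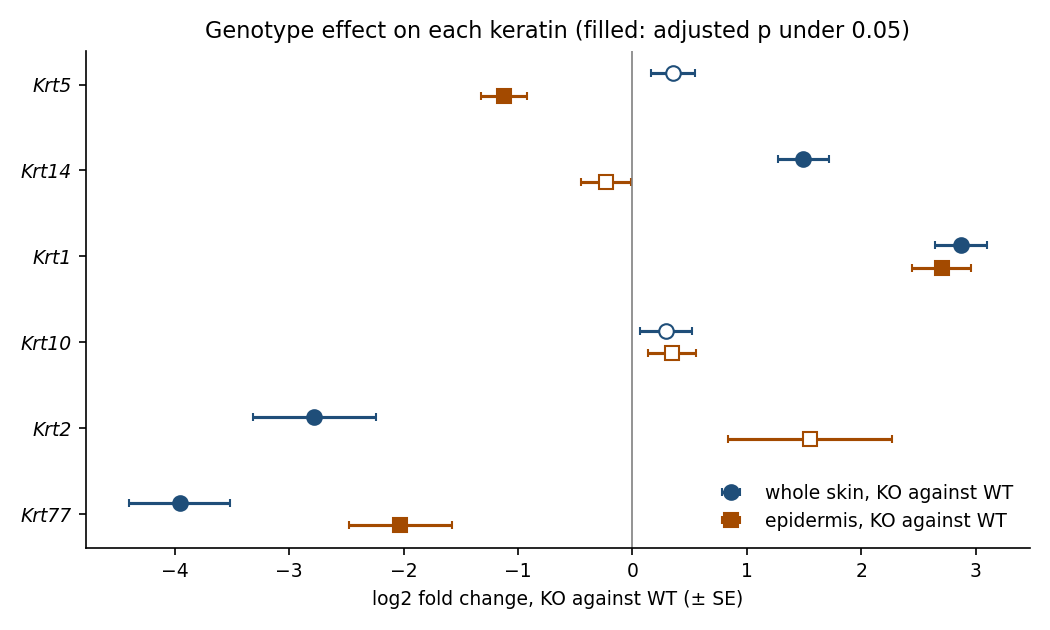
Log2 fold change, KO against WT, of each keratin in whole skin (circles) and epidermis (squares), with bars of 1 SE. Filled symbols passed the threshold of edgeR's test. Krt1 lies to the right and Krt77 to the left of 0 in both tissues, and Krt5, Krt14 and Krt2 have effects that differ between the tissues by the interaction test.

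Krt2 (ENSMUSG00000064201.8; chr15:101810689-101818169, minus strand) was scarce, with 41, 43 and 32 expected counts in WT skin and 2, 2 and 10 in KO skin. In CPM these were 2.87, 2.25 and 1.94 against 0.142, 0.143 and 0.634. The groups did not overlap, and the log2 change was -2.78 (SE 0.54, adjusted p = 0.0061) by edgeR's test. Without Skin KO 3 the log2 fold change was -3.87, and with the covariate for Y-linked reads the call ended (-2.84, adjusted p = 0.0574). In epidermis the expected counts of Krt2 were 61, 58 and 65 in WT and 78, 419 and 54 in KO libraries. In CPM these were 5.39, 4 and 5.61 against 6.17, 33.3 and 3.81. Epidermis KO 2, the library with mucosal keratins, stood far above all others, while KO 1 lay just above and KO 3 just below the WT range. The log2 difference of 1.55 (SE 0.72, adjusted p = 0.0984) did not pass and was 0.01 without that library. It passed without Epidermis KO 3 (2.01, adjusted p = 0.0213), with no filter on low counts (1.53, adjusted p = 0.04) and with the covariate for Y-linked reads (2.57, adjusted p = 0.0229). The interaction of 4.39 (SE 1.12, adjusted p = 0.0233) for Krt2 was 2.86 without Epidermis KO 2 (adjusted p = 0.022). It was not called without Skin KO 1 (4.06, adjusted p = 0.0523) or Skin KO 2 (4.06, adjusted p = 0.0666), and it was 5.49 without Skin KO 3.

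The bases just before the start sites are shown for Krt10, Krt77 and Krt2, the suprabasal members whose RefSeq start (GRCm38.p6, the build of the files) is the annotated one. Krt10 was not called in either tissue, Krt77 fell in both and Krt2 fell in skin. Each sequence holds the 120 bases before the start, 5′ to 3′ on the minus strand. Capitals mark the letters TATATA, a form of the TATA element at which transcription machinery assembles.
Krt10, chr11:99389365-99389484: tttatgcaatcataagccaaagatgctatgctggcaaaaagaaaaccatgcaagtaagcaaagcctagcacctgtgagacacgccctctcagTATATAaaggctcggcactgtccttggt
Krt77, chr15:101869706-101869825: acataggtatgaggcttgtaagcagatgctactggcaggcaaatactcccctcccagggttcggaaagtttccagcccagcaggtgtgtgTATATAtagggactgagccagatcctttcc
Krt2, chr15:101818170-101818289: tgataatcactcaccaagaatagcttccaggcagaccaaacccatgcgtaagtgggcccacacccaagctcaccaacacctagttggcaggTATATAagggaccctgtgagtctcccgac

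In these windows TATATA began 28 bases before the start of Krt10, 29 before that of Krt2 and 30 before that of Krt77. Of 32851 RefSeq promoter windows 1.35% held these letters on the gene strand in the last 50 bases. This window and strand differ from those used for the other letters, and the share is no test of enrichment in these genes. Searched on both strands of the 120 bases, the AP-1 letters TGANTCA (in 3.41% of all windows) and the AP-2 letters GCCNNNGGC (7.98%) occurred in none of the windows of Krt10, Krt2, Krt77 and Krt5, nor did the letters CCACCC read by Sp1 and KLF factors (16.5%). The C/EBP letters TTGCNNAA (4.15%) occurred in Krt10, as did TATAAA (6.34%), which there overlaps TATATA. The RefSeq start of Krt5 lay 7 bases from the annotated one, and its window held neither TATATA nor TATAAA. No other spelling was searched, and the last 50 bases of that window hold the run GATAAAAG, which neither spelling matches. A match is a run of letters and not a measured binding site, and the promoters of Krt14 and Krt1 are not shown.

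Krt1 and Krt10 were nearer to equal TPM in the KO than in the WT. The ratio of Krt1 to Krt10 in TPM was 0.148, 0.163 and 0.171 in WT skin and 1.02, 0.936 and 0.92 in KO skin. In epidermis it was 0.134, 0.138 and 0.16 in WT and 0.84, 0.701 and 0.649 in KO. All 6 KO libraries lay above all 6 WT libraries. The ratio of Krt77 to Krt10 went the other way, from 0.621 ± 0.0333 (SD, n = 3) to 0.0334 ± 0.0191 (SD, n = 3) in skin and from 0.577 ± 0.106 (SD, n = 3) to 0.118 ± 0.0728 (SD, n = 3) in epidermis.

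Summed, Krt1 and Krt77 had a ratio to Krt10 that differed less between genotypes. It was 0.782 ± 0.0383 (SD, n = 3) in WT skin and 0.991 ± 0.0495 (SD, n = 3) in KO skin, where the groups did not overlap. In epidermis the sum stood at 0.721 ± 0.12 (SD, n = 3) in WT and 0.848 ± 0.0367 (SD, n = 3) in KO, with overlapping ranges. The ratio of all 4 type II members to both type I members was 0.925 ± 0.0388 (SD, n = 3) in WT skin, 0.814 ± 0.0464 (SD, n = 3) in KO skin, 0.866 ± 0.0403 (SD, n = 3) in WT epidermis and 0.813 ± 0.00854 (SD, n = 3) in KO epidermis. These sums with Krt77 and over the members were formed after the levels of Krt1 and Krt77 had been seen, and they were not tested.

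**Figure D3:**
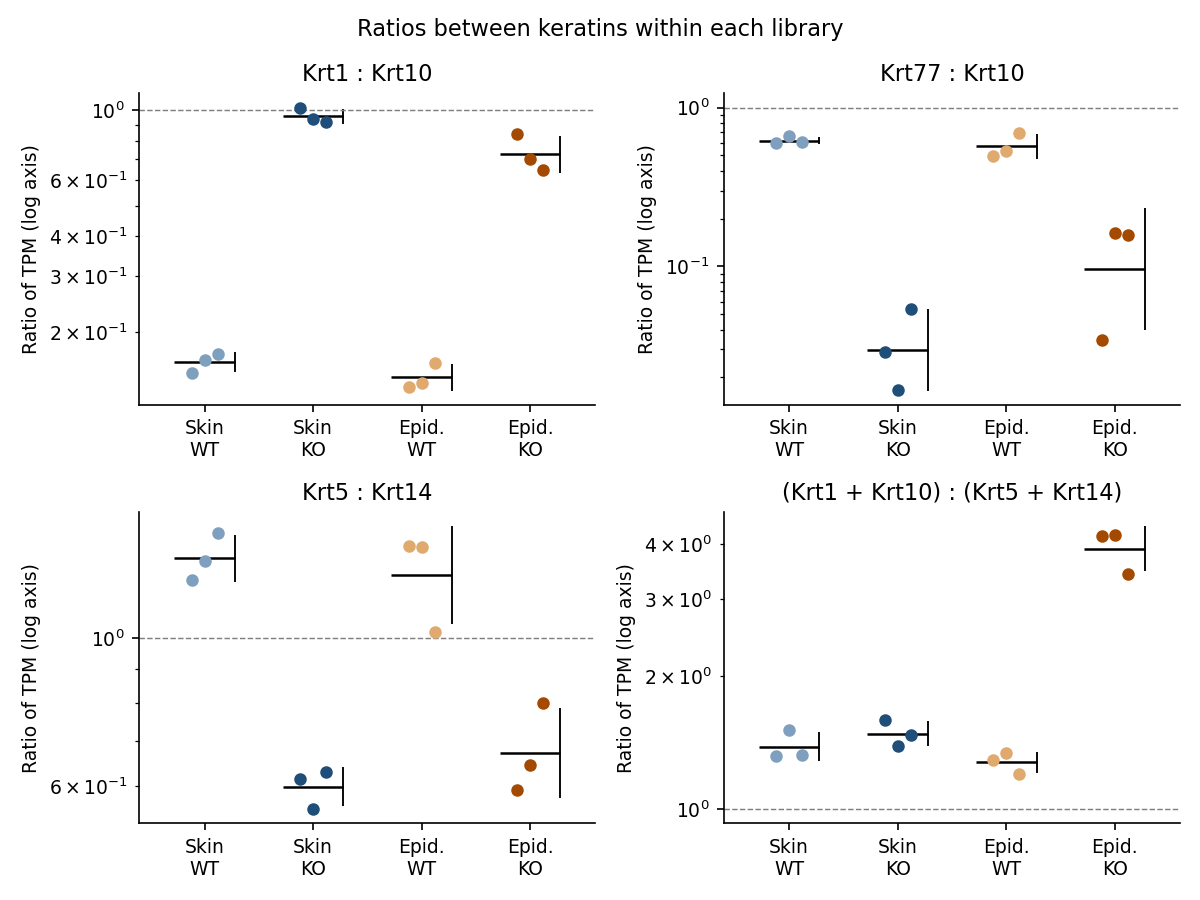
Ratios of TPM within each library (log axes) by group. Points are libraries, lines are geometric means, bars are 1 SD of the log2 ratios and the dashed line marks equal TPM. Krt1 to Krt10 is at most 0.171 in WT and at least 0.649 in KO libraries, Krt77 to Krt10 and Krt5 to Krt14 are lower in KO libraries, and the suprabasal to basal ratio is at least 3.41 in KO epidermis and at most 1.59 in the other 3 groups.

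The suprabasal pair relative to the basal pair, as the TPM of Krt1 and Krt10 over that of Krt5 and Krt14, stood apart in KO epidermis. It was 1.32, 1.51 and 1.33 in WT skin and 1.59, 1.39 and 1.47 in KO skin, and these ranges overlapped. It was 1.29, 1.34 and 1.2 in WT epidermis and 4.16, 4.19 and 3.41 in KO epidermis, with no overlap. From WT to KO epidermis mean TPM went from 1835 to 11842 for Krt1 and from 12785.5 to 16279.6 for Krt10. For Krt5 it went from 6335 to 2953 and for Krt14 from 5105 to 4316. The ratio thus holds the rise of Krt1, and it leaves out Krt77, which went from 7318 to 1936. In bulk RNA fewer cells of a layer and less RNA per cell cannot be told apart.

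As a share of the TPM of all 6 genes, Krt1 took 6.13 ± 0.4 (SD, n = 3) percent in WT skin and 28.9 ± 1.53 (SD, n = 3) percent in KO skin. Krt77 took 23.7 ± 1.5 (SD, n = 3) percent in WT skin and 1.01 ± 0.59 (SD, n = 3) percent in KO skin. In epidermis Krt1 held 5.5 ± 0.165 (SD, n = 3) percent in WT and 31.8 ± 4.04 (SD, n = 3) percent in KO, and Krt77 21.9 ± 2.51 (SD, n = 3) percent and 5.18 ± 3.21 (SD, n = 3) percent. Krt1 was thus the fifth of the 6 in every WT library and the first or second in every KO library. Together the 6 genes held 3.99 ± 0.656 (SD, n = 3) percent of all expected counts in WT skin, 5.5 ± 0.489 (SD, n = 3) percent in KO skin, 6.67 ± 0.319 (SD, n = 3) percent in WT epidermis and 7.19 ± 0.661 (SD, n = 3) percent in KO epidermis.

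**Figure D4:**
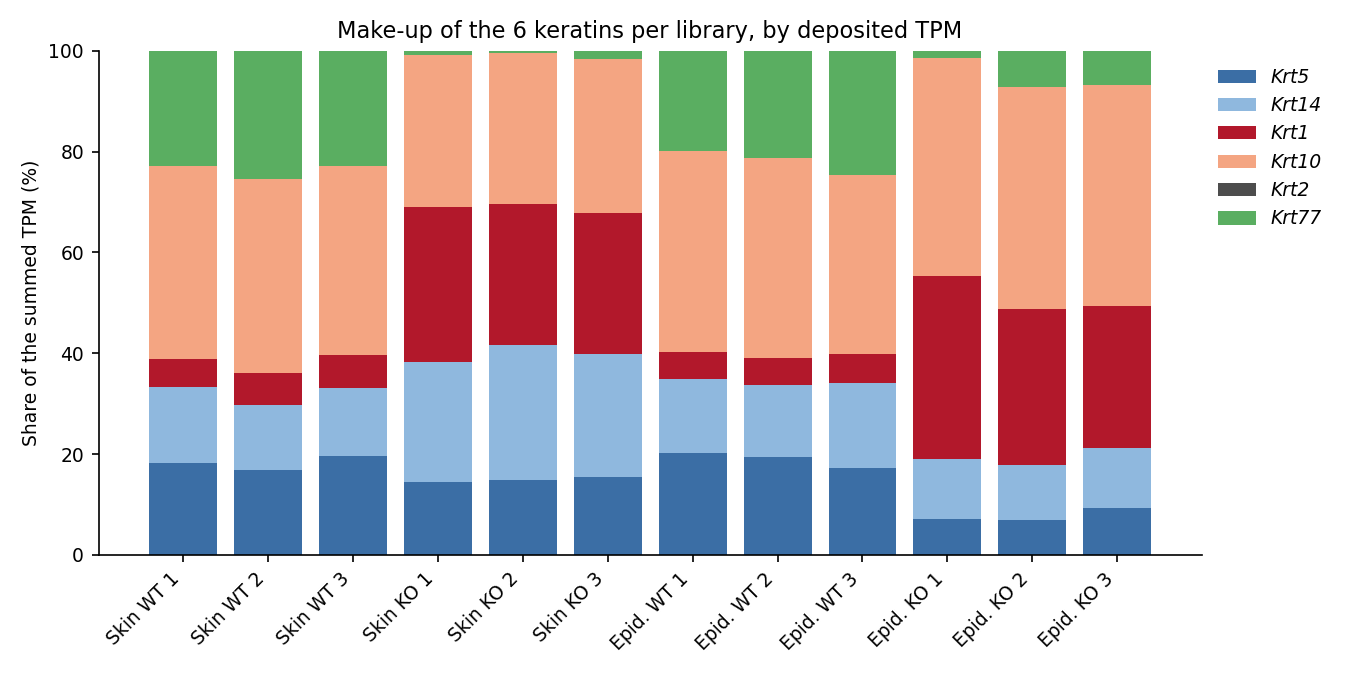
Share of each keratin in the summed TPM of the 6 genes (percent) for each of the 12 libraries. Krt77 shrinks and Krt1 widens in the KO libraries of either tissue, and Krt5 and Krt14 together narrow in KO epidermis. Krt2, at most 0.0407%, is too thin to be seen.

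Across the 4 groups Krt5 was highest in WT epidermis, at a mean of 13524 ± 787 (SD, n = 3) CPM, then in KO skin, WT skin and KO epidermis, with WT skin and KO epidermis overlapping. Krt14 was lowest in WT skin, and its other 3 groups overlapped with their neighbours in the order KO skin, WT epidermis, KO epidermis. Krt1 was ordered KO epidermis, KO skin, WT epidermis, WT skin, with no overlap between neighbours. Krt10 followed tissue first, with KO epidermis above WT epidermis without overlap, and KO skin and WT skin below them overlapping each other. Krt77 was ordered WT epidermis, WT skin, KO epidermis, KO skin, with no overlap between neighbours. Krt2 was highest in the 2 epidermis groups, which overlapped, then WT skin and last KO skin. Among all genes tested, groups did not overlap for 58% between genotypes in skin and 62% in epidermis. The share was 56.5% between WT tissues and 47.8% between KO tissues. No such share was computed for other pairs of groups or for the order of all 4.

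All 6 keratins were higher in WT epidermis than in WT skin. Against WT skin the log2 differences were 1.06 for Krt5, 1.13 for Krt14, 0.85 for Krt1, 1.00 for Krt10, 1.06 for Krt2 and 0.90 for Krt77, with adjusted p from 0.00355 to 0.0235 by edgeR's test, where 42.9% of 14596 genes were called and 17.5% were called higher. No keratin's groups overlapped, as for 56.5% of genes. Their median was 1.03, beside -0.07 over all genes tested. Leaving out 1 library ended the call of Krt2 in 4 of 6 cases (without Skin WT 2 or 3 or Epidermis WT 1 or 3, adjusted p from 0.0531 to 0.0703). It ended that of Krt77 without Skin WT 3 (adjusted p = 0.0753) or Epidermis WT 3 (adjusted p = 0.0578).

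In KO mice the same tissue comparison was uneven. Krt10 was higher in epidermis by 1.15 (SE 0.28, adjusted p = 0.0207), Krt77 by 2.91 (SE 0.59, adjusted p = 0.0111) and Krt2 by 5.47 (SE 1.09, adjusted p = 0.0109) on the log2 scale, where 29.9% of 14117 genes were called and 14.1% were called higher. For these 3 and Krt1 the groups did not overlap, as for 47.8% of genes. Krt1 at 0.78 (SE 0.31, adjusted p = 0.0956), Krt5 at -0.31 (SE 0.22, adjusted p = 0.314) and Krt14 at -0.50 (SE 0.24, adjusted p = 0.158) did not pass edgeR's test. DESeq2 called Krt1 (0.77, adjusted p = 0.000301) and, as lower, Krt14 (-0.50, adjusted p = 0.0183). With scaling by total counts Krt5 was also called lower (-0.61, adjusted p = 0.035), as was Krt14 (-0.80, adjusted p = 0.0112). The call of Krt10 ended without Skin KO 3 (adjusted p = 0.103), and Krt2 measured 3.95 without Epidermis KO 2 and 6.57 without Skin KO 3. These tissue comparisons share libraries with the genotype comparisons above.

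On chromosome 15 Krt1 and Krt77 are direct neighbours, 7936 bases apart with no annotated gene between them, and they moved in opposite directions in both tissues. Krt2 is the next member on the other side of Krt1, and it fell in skin. The type II cluster there holds 27 keratin genes, the type I gene Krt18 among them. In skin 7 of the 23 tested rose and 4 fell, and in epidermis 8 of the 20 tested rose and 4 fell. Beside these, 22.2% of all genes rose and 23.3% fell in skin, and 26.2% rose and 25.3% fell in epidermis. The type I members Krt10 and Krt14 lie on chromosome 11.

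**Figure D5:**
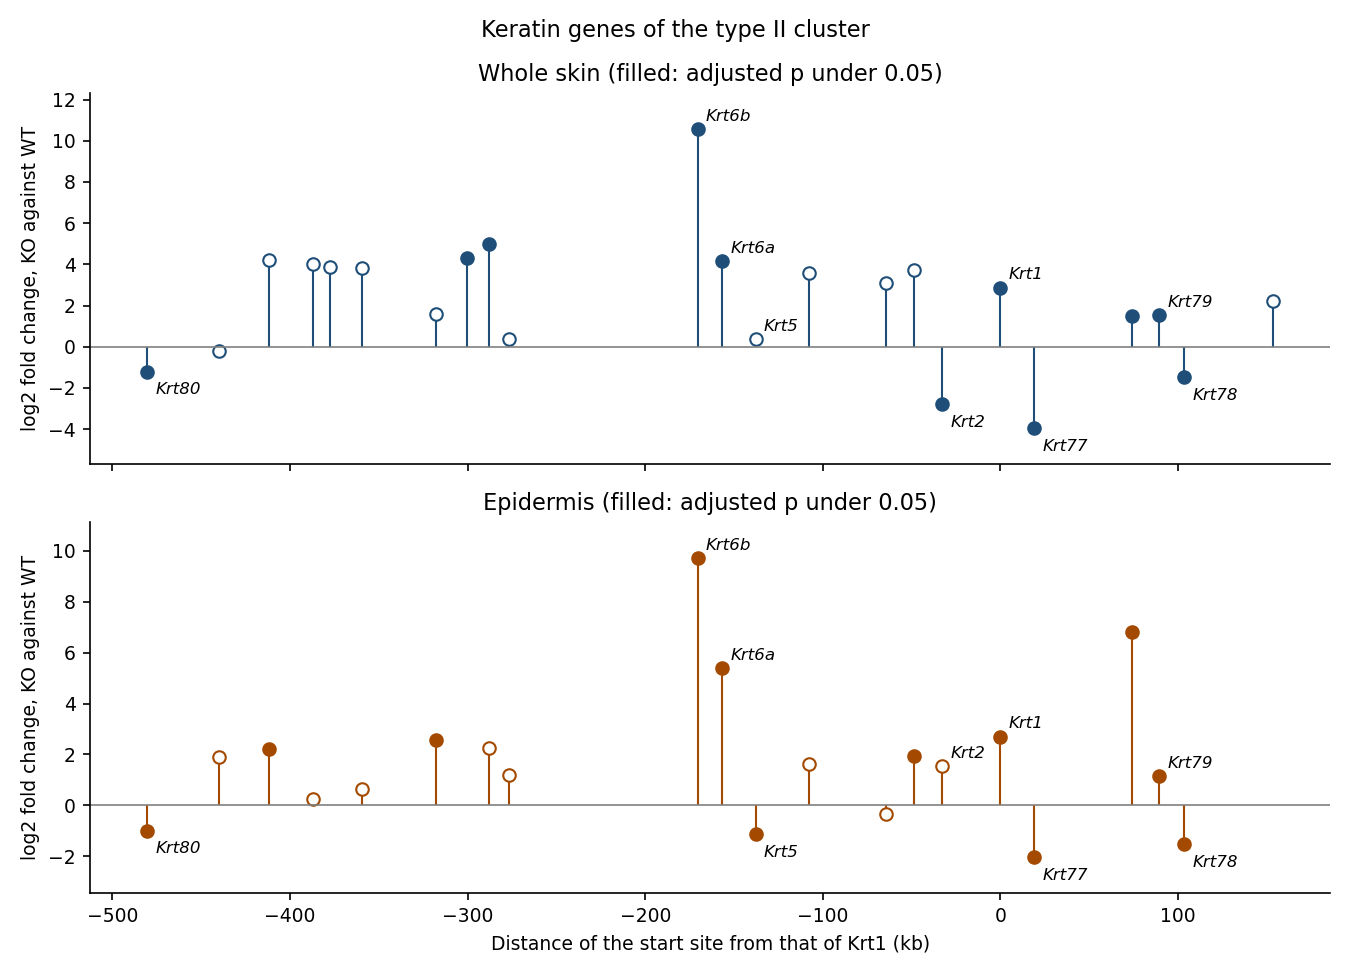
Log2 fold change, KO against WT, of the tested keratin genes of the type II cluster in whole skin and epidermis, against the distance of their start from that of Krt1 (kb). Filled points passed the threshold of edgeR's test. Krt1 at 0 rises in both tissues and its neighbour Krt77 at 18.9 kb falls in both.

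Other keratins of the skin were read in lists of related genes. Counts of these and the lists below stand beside 45.5% of all genes called in skin and 51.5% in epidermis. Of 6 tested members of a list of other epidermal keratins, 2 rose and 4 fell in either tissue (medians of -1.34 in skin and -1.26 in epidermis). Krt4, the mucosal keratin described above, was among those that rose. Its expected counts were 11, 13 and 22 in WT epidermis and 38, 4671 and 611 in KO epidermis. In skin they were 13, 19 and 17 in WT and 15, 57 and 41 in KO libraries. Krt15, a type I keratin of basal and follicle bulge cells, fell from 4072, 4158 and 3379 CPM in WT skin to 547, 491 and 495 in KO skin, a log2 change of -2.83 (SE 0.18, adjusted p = 0.000113) by edgeR's test. In epidermis its log2 change was -3.43 (adjusted p = 0.000145). Krt78, a suprabasal type II keratin, fell with log2 fold changes of -1.47 in skin and -1.54 in epidermis, the former a call that ended with Skin KO 2 as the only KO library (adjusted p = 0.0527). Krt79, a type II keratin of the upper follicle, rose by 1.55 in skin and 1.14 in epidermis on the log2 scale. Krt23, a type I keratin, fell in both tissues (log2 changes of -2.07 in skin and -3.35 in epidermis).

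Of the 4 stress keratins, which keratinocytes induce in wounds and hyperproliferation, 4 rose in skin and 3 in epidermis, where Krt17 did not pass. The type II keratin Krt6b was at 1.47 to 3.28 CPM in WT skin and 2306 to 4285 in KO skin, and at 1.32 to 2.34 CPM in WT epidermis and 569 to 2384 in KO epidermis. On the log2 scale Krt6a rose by 4.15 in skin and 5.38 in epidermis, and its type I partner Krt16 by 6.76 and 6.24. Members of the Krt6 family share reads with each other, so the split between Krt6a and Krt6b is uncertain. With these, the ratio of 26 type II to 25 type I keratins in TPM was 0.73 ± 0.0445 (SD, n = 3) in WT skin, 0.849 ± 0.0169 (SD, n = 3) in KO skin, 0.669 ± 0.0101 (SD, n = 3) in WT epidermis and 0.806 ± 0.00416 (SD, n = 3) in KO epidermis. It was higher in each KO library than in any WT library of its tissue.

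Changes of other epidermal genes, read beside the keratins, are given as log2 fold changes by the same test. In epidermis, where Krt5 fell, 11 of 16 basal markers other than keratins fell and 2 rose (median -1.02). In skin 5 fell and 4 rose (median -0.22). Among all genes 25.3% fell and 26.2% rose in epidermis, and 23.3% fell and 22.2% rose in skin. Lamb3, a laminin chain of the basement membrane, fell (-2.06 in epidermis and -0.72 in skin). Igfbp3 fell (-2.16 in skin and -2.78 in epidermis), and Cd44, a hyaluronan receptor, rose by 2.08 in skin and 2.37 in epidermis. The 10 proliferation genes all rose in skin, where Krt14 rose, and 3 rose and 1 fell in epidermis.

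Spinous and granular markers other than keratins changed in both directions. In skin 8 of 20 rose and 6 fell (median 0.20), and in epidermis 7 rose and 8 fell (median 0.05). Over all genes tested 22.2% rose and 23.3% fell in skin, and 26.2% rose and 25.3% fell in epidermis. Lor, Flg2, Sbsn, Dmkn and Ptgs1 were among those that fell in both tissues. The list summed to 17127 to 23846 CPM in WT skin and 12590 to 15015 in KO skin. In epidermis the sum was 24635 to 40478 CPM in WT and 14894.5 to 16617 in KO libraries. Casp14, a protease of terminal differentiation, rose by 2.97 in skin and 2.85 in epidermis. Calml3, a calmodulin-like protein, rose by 1.58 in skin and 0.91 in epidermis. Dsg1b, a desmosomal cadherin, rose by 1.52 in skin and 2.64 in epidermis. Of 13 tested anchors and linkers of keratin filaments, 1 rose and 3 fell in skin, and 4 rose and 4 fell in epidermis. Flg, which bundles keratin filaments in the granular layer, rose by 2.24 in skin and 1.79 in epidermis. Dst, which ties Krt5 and Krt14 filaments to hemidesmosomes, fell (-2.02 in skin and -2.05 in epidermis), and Itgb4, its hemidesmosomal integrin partner, fell (-1.28) in epidermis.

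Of 32 regulators linked to epidermal keratin genes, 11 rose and 4 fell in skin, and 9 rose and 9 fell in epidermis. The share of all genes called was 45.5% in skin and 51.5% in epidermis. Junb and Fos, subunits of the AP-1 factor, rose by 1.35 and 1.85 in skin on the log2 scale. In epidermis both fell, with log2 fold changes of -1.87 for Junb and -1.38 for Fos (adjusted p = 0.000668). Their interactions were -3.15 (SE 0.21, adjusted p = 0.000116) for Junb and -3.16 (SE 0.30, adjusted p = 0.000226) for Fos by edgeR's test. Both already differed between WT tissues, with log2 differences of 3.94 for Junb and 5.78 for Fos, higher in epidermis. Tfap2a, the AP-2 alpha factor, rose by 1.37 in skin and 0.97 in epidermis. Satb1, a chromatin organiser, fell (-2.66 in skin and -1.11 in epidermis). Hes1, a Notch target, fell (-3.55) in epidermis and did not pass in skin (-0.02). Mean Hes1 was 409 CPM in WT epidermis, 34.3 in KO epidermis, 35.4 in WT skin and 32.8 in KO skin, so WT epidermis alone stood high.

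Markers of other cells moved between the groups as well, where 45.5% of all genes were called in skin and 51.5% in epidermis. In skin 8 of 8 skeletal muscle, 7 of 8 adipocyte, 6 of 6 endothelial and 5 of 8 fibroblast markers fell, with none higher, and endothelial markers summed to 94.5 to 107 CPM in WT and 25.4 to 36.6 in KO skin. In epidermis 7 of 7 tested fibroblast and 6 of 9 immune markers rose, and immune markers summed to 281 to 356 CPM in WT and 595 to 1344 in KO epidermis. Adipocyte markers summed to 7.24 to 8.47 CPM in WT and 11.5 to 17.6 CPM in KO epidermis. Of 6 sebaceous gland markers 2 rose in skin, and 4 rose and 1 fell in epidermis. Melanocyte markers rose in 5 of 5 cases in skin and 4 of 5 in epidermis. Hair follicle markers divided, with 2 of 10 higher and 2 lower in skin and 2 of 8 lower in epidermis. Of companion layer and follicle keratins 1 of 7 rose in either tissue (Krt28 in skin, Krt73 in epidermis). Of simple epithelial keratins 0 of 3 tested passed edgeR's test in skin (0 at an unadjusted p under 0.05, 1 by DESeq2) and 0 of 1 in epidermis (1 unadjusted, 0 by DESeq2). The sum of this list was at most 6.48 CPM in WT libraries, 25.5 CPM in Skin KO 2, 138 CPM in Epidermis KO 2 and 19.1 CPM in Epidermis KO 3. What these other cells contribute to the keratin values was not tested.

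The genes nearest to each keratin in profile were found by the root mean square difference of centred log2 CPM over the 12 libraries, among 9102 genes of at least 10 CPM (9103 for Krt2). For Krt5 they were Pold1 (0.15), Dtymk (0.16) and Trip6 (0.16), and for Krt14 Cfl1 (0.16), Ebp (0.18) and Ranbp1 (0.18). For Krt1 they were Casp14 (0.27), Bdh1 (0.29) and Slc35f2 (0.30), and for Krt10 Hcar2 (0.15), Smpd2 (0.17) and Mvk (0.18). Krt77 was nearest to Gldc (0.54), Sema3d (0.54) and Kcnj16 (0.57). Krt2 had no near neighbour, the closest being Hba-a1 at 0.85, Ache at 0.99 and Skint9 at 1.06. None of these 18 genes is another of the 6 keratins, so no keratin here had its own filament partner among its 3 nearest profiles. Krt2 itself, at a mean of 5.53 CPM, was under the minimum of 10 CPM and could not have been listed. The points share libraries and scaling, and likeness of profile is a description.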

How the data were processed

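Libraries of poly(A) RNA were prepared with a stranded kit, as the labels' protocols state. RSEM made the deposited expected counts, and the submitters' processing notes also name bcl2fastq 2.17, the aligner STAR 2.5.1 and the build mm10. For the annotation release and the strand setting, the sources used here give nothing. The deposited TPM values served for ratios within a library, and the FPKM values the authors deposited were not used. Gene IDs were matched without version to GENCODE M21 for symbols and positions (419 of 47643 had none), and promoter windows came from RefSeq (GRCm38.p6).

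Expected counts were rounded and tested with edgeR 4.0.16 in R 4.3.3 (TMM, default expression filter, quasi-likelihood test, Benjamini-Hochberg adjustment over all genes tested, threshold 0.05), in the 6 libraries of each comparison and, for the interaction, in all 12. Printed CPM use TMM factors of all 12 libraries, while each fold change is fitted on the 6 libraries of its comparison, so ratios of printed means differ somewhat from the fitted fold changes. Between this fit and 1 fit of 12 libraries the log2 fold changes of the 6 keratins differed by at most 0.0922. Tested on simulated data, the skin test (14444 genes) recovered 32.6% of 89 genes changed 2-fold and 100% of 111 changed 4-fold, with 4.11% of its calls false. The epidermis test (13027 genes) recovered 88.6% of 88 and 100% of 112, with 5.94% false, just above the threshold of 0.05. The simulation changed only these genes and gave every gene the same dispersion, whereas 45.5% (skin) and 51.5% (epidermis) of real genes were called. These rates therefore need not carry over to the tests reported here.

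The 6 keratins and the 17 gene lists were chosen with earlier results of these data known. Other genes were named by a rule, at most 3 per list with the smallest adjusted p in the comparison described, plus the 3 nearest profiles of each keratin. Genes named outside the rule (Krt4, Krt13, Krt17, Krt28, Krt73, Lor, Flg2, Sbsn, Dmkn, Ptgs1) were chosen after their values were seen. Libraries of the same replicate number deviated together in skin (correlations across genes of 0.339, 0.359 and 0.206). The labels name no pairs, and the printed skin results come from fits without pairing, with a replicate block as an alternative. In epidermis the correlations for the same number were 0.0745, 0.14 and -0.0550, and between tissues from -0.244 to 0.0303, so no pairing was assumed. Within skin, unlike numbers ran from -0.446 to 0.114, below every correlation for the same number there. Between WT tissues unlike numbers reached 0.324 (Epidermis WT 2 with Skin WT 3), so such a correlation need not mark a pair. Alternatives were DESeq2 1.42.0, limma-voom (limma 3.58.1), other scalings, no filter, a minimum of 1.5-fold, 1 fit of 12 libraries, a replicate block, leaving out each library and, chosen after seeing the data, a covariate for Y-linked reads and leaving out the KO skin libraries that held them.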

Additional observations from a re-analysis of the deposited data

Results flagged for a closer look

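The genotype effect differed between epidermis and skin, by the interaction test over 12 libraries (edgeR, Benjamini-Hochberg adjusted), for 3 of the 6 keratins. The log2 difference, epidermis minus skin, was -1.40 for Krt5, -1.65 for Krt14 and 4.39 for Krt2. It also differed for 6 of the other genes named from the lists by the rule. These were the transcription factor genes Satb1 (1.63), Junb (-3.15), Fos (-3.16) and Hes1 (-3.46), and the basal adhesion genes Itgb4 (-0.98) and Lamb3 (-1.26). All 6 had been named for a small adjusted p in a genotype comparison of these data. The share of all genes called is therefore no reference for them. Of the 16 basal markers other than keratins, 6 had a lower log2 fold change in epidermis than in skin by this test, 0 a higher one, and 10 did not pass. Over all genes tested 6.36% were called lower and 10.1% higher. The call of Itgb4 ended in 5 of 12 leave-outs (adjusted p from 0.0511 to 0.0667), with total count scaling (adjusted p = 0.065) and with the replicate block (adjusted p = 0.0625). The calls of Itgb4 and Lamb3 also ended at a minimum of 1.5-fold. Between WT tissues Junb (3.94), Fos (5.78), Hes1 (3.51), Itgb4 (0.67) and Lamb3 (0.88) were already higher in epidermis, and Satb1 (-0.43) was lower. The 2 genotype contrasts differ in tissue and in the other cells present, and what sets the differences between them was not tested.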

How the results depend on the processing

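Among the genotype results of the 6 keratins, those of Krt14, Krt1, Krt10 and Krt77 in skin and of Krt5, Krt14 and Krt1 in epidermis held under every alternative run. Krt5 in skin passed with DESeq2 (0.35) and Krt10 in epidermis did too (0.36). With the Y-linked covariate Krt2 in skin (-2.84) and Krt77 in epidermis (-1.02) lost their calls, and Krt2 in epidermis passed (2.57), as it did with no filter (1.53). Without 1 library Krt2 in epidermis ran from 0.0122 to 2.01. At a minimum of 1.5-fold, calls between WT tissues were lost for Krt1 (0.85), Krt10 (1.00), Krt2 (1.06) and Krt77 (0.90), and in 1 fit of 12 libraries for Krt2 (1.09) and Krt77 (0.92). Without 1 library these ran from 0.93 to 1.25 for Krt2 and from 0.70 to 1.02 for Krt77. Between KO tissues Krt1 passed with DESeq2 (0.77), limma-voom (0.74), no filter (0.78) and 1 fit of 12 libraries (0.79), Krt14 with DESeq2 (-0.50) and total count scaling (-0.80), and Krt5 with the latter (-0.61). Krt10 was lost there at 1.5-fold (1.15) and ran from 1.02 to 1.25 without 1 library, and Krt2 was lost with limma-voom (4.99). For the interaction Krt2 was lost with limma-voom (3.93) and ran from 2.86 to 5.49 without 1 library, and Krt77 passed with DESeq2 (1.98) and no filter (1.96) and ran from 1.68 to 2.53. The interactions of Krt1 (-0.36 to 0.0367) and Krt10 (-0.00752 to 0.22), near 0, changed sign without 1 library.

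The number of genes called fell at 1.5-fold from 6780 to 3576 in skin, 7014 to 3128 in epidermis, 6258 to 3235 between WT tissues, 4227 to 1057 between KO tissues and 2539 to 973 for the interaction. It was 2658 in skin without the KO libraries with Y-linked reads and 4540 in epidermis with the covariate. Without 1 library it ran from 2328 to 3561 between KO tissues, with the lowest without Skin KO 3, and from 1393 to 3940 for the interaction.

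The replicate block in skin, where libraries of the same number deviated together, gave 6567 calls and changed no call of the 6 keratins. Elsewhere libraries share only a number. There the block gave 2805 calls between KO tissues, and blocking by genotype and number gave 1271 for the interaction. Under the block Krt1 (0.85), Krt10 (1.01) and Krt77 (0.88) were not called between WT tissues, and Krt77 passed for the interaction (2.01). Krt2 had as few as 2 counts in a library, which limits the precision of its fold changes.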
